A study of Mus musculus with 30 samples.

Results

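Small nucleolar RNAs (snoRNAs) and small Cajal body-specific RNAs (scaRNAs) were followed in total RNA of mouse cardiac myocytes. The 81 RNAs described here are all rows of the deposited count table with the biotype snoRNA or scaRNA and at least 10 reads in at least 5 of the 30 libraries. They are 68 snoRNAs and 13 scaRNAs, out of 1558 rows of these biotypes and 52550 gene rows in all. They were thus chosen by their read counts over all 6 groups, so their abundance is described and not tested. Of the remaining rows, 1090 had no read in any library and 387 had reads but fewer than the rule asks. By symbol, 18 are Snord, 10 Snora and 5 Scarna genes, while 40 snoRNAs and 8 scaRNAs carry only a provisional Gm symbol.

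As background, snoRNAs guide chemical modification of ribosomal RNA in the nucleolus. Box C/D snoRNAs (Snord) direct 2′-O-methylation with the methyltransferase Fbl, and box H/ACA snoRNAs (Snora) direct pseudouridylation with the synthase Dkc1. scaRNAs use the same boxes but act in Cajal bodies, where they guide modification of spliceosomal small nuclear RNAs. Most mouse snoRNAs are cut out of introns of host genes, many of which encode ribosomal proteins or translation factors, and a few are transcribed from promoters of their own.

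Wild-type mice were compared with Myh6-Cre:DspW/F mice (heterozygotes below), in which Cre recombinase is driven in cardiac myocytes by the Myh6 promoter and acts on a floxed allele of Dsp, the gene for the desmosomal protein desmoplakin. There were 6 groups of 5 libraries: both genotypes at 3 months of age, both at 6 months with regular activity, and both at 6 months following endurance exercise on a treadmill for 3 months. Whether wild types carry Cre, and whether replicates are separate animals, is not given in the labels, so p-values measure the spread between these samples. In bulk RNA, fewer cells of a type and less RNA per cell cannot be told apart.

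Total counts ranged from 11232143 to 23710331 per library. Mean Dsp levels were lower in heterozygotes in all 3 genotype comparisons, and only the exercised one passed the test (means of 848 against 1561 CPM, read counts scaled to library size, log2 fold change -0.88, edgeR adjusted p = 0.0287). All 10 cardiac myocyte markers checked (such as Myh6 and Tnnt2) were detected in every library, summing to 73081 to 116642 CPM. Fibroblast markers (7 genes) summed to 88.4 to 727 CPM, macrophage markers (7 genes) to 9.77 to 110.1 CPM, and endothelial markers (7 genes) to 187 to 1108 CPM. Of 23 spike-in controls, each 3-month library has values for 3, each regular-activity library at 6 months for 18 (wild type 5 for 11), and each exercised library for 0. Any handling of libraries that differs between these sets and the effects of age or exercise cannot be told apart, whereas both genotypes are present in each set.

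The sequences of 9 members show the guide classes and the RNAs the comparisons turn on, as GENCODE M21 transcripts (GRCm38), 5′ to 3′. Capitals mark the C box (TGATGA within the first 20 bases) and the D box (CTGA within the last 20 bases), or the ACA box (ACA with 2 to 4 bases after it at the 3′ end), searched on the transcript strand only. The first lines hold short box H/ACA members: Snora78 in an intron of Snhg9 (chr17:24719676-24719803, minus strand), Snora31 in an intron of Tpt1 (chr14:75847905-75848034, plus strand), and the near-identical Gm25788 (chr4:123291344-123291474, plus strand) and Gm22154 (chr4:123293152-123293282, plus strand) in introns of Pabpc4.
Snora78: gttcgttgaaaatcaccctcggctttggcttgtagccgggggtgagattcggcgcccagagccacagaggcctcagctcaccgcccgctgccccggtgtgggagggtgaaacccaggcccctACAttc
Snora31: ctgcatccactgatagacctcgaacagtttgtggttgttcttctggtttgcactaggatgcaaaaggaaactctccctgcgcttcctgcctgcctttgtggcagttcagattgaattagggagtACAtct
Gm25788: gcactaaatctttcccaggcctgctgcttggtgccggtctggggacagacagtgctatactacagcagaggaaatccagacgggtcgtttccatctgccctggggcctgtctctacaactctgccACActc
Gm22154: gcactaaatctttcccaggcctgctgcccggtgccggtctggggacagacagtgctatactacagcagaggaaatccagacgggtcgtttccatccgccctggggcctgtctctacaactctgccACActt

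The short box C/D members shown are Snord32a in an intron of Rpl13a (chr7:45127382-45127464, minus strand) and Snord104, for which no host was found (chr11:106500993-106501062, plus strand).
Snord32a: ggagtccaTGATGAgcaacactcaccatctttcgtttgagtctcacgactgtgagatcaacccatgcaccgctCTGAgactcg
Snord104: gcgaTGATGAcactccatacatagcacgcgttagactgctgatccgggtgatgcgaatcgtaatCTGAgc

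The last lines are some of the members called lower after exercise in wild type, all of over 200 bases: Scarna13 in an intron of Snhg10 (chr12:105031075-105031349, minus strand), Snord17 in an intron of Snx5 (chr2:144265979-144266216, minus strand) and Gm26448 in an intron of Rpsa (chr9:120129351-120129553, plus strand).
Scarna13: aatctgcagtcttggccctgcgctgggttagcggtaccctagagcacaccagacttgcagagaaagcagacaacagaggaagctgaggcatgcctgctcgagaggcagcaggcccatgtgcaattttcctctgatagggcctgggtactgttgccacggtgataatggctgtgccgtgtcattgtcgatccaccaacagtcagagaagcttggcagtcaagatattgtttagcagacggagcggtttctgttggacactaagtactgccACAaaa
Snord17: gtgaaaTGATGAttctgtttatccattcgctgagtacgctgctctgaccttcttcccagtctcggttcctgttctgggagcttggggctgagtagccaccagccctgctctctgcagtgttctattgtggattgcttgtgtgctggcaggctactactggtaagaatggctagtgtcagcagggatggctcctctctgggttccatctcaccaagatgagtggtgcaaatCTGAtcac
Gm26448: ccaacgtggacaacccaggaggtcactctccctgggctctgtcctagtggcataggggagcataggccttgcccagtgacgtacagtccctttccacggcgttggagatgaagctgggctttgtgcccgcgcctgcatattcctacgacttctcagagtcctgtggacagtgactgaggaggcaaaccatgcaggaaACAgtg

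Box letters sorted the members much as their symbols do. Both C and D boxes were found in 14 of 18 Snord members and the ACA box in all 10 Snora members. Among the 40 snoRNAs with Gm symbols, 29 had the ACA box and 4 the C and D boxes, so most of the unnamed members look like H/ACA RNAs by these letters. Over all 81 members, 22 had C and D boxes only, 46 the ACA box only, 1 (Snord83b) both, and 12 neither, Scarna2, Snord13 and Snord118 among them. C and D boxes stood in 28.4% of members and in 20.2% of all 1558 rows, and the ACA box in 58% and 44.3%. Members with C and D boxes had a median length of 103 bases, from 64 to 343, and members with the ACA box a median of 136 bases, from 117 to 275.

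GENCODE places 66 members wholly inside an intron of a gene on the same strand and 4 across an exon of one, and no host was found for 11. The 70 hosted members lie in 64 hosts, of which 8 are ribosomal protein genes holding 10 members. No host held more than 2 members, each hosted member being given a single host. Clusters of members by position, including the 11 without a host, are not described here. Snord32a was the only member in Rpl13a, a host whose snoRNAs are known from work on lipotoxic stress.

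Per kilobase of annotated length, Gm25291 (box H/ACA, in Sec24a) was the most abundant at a mean of 558 CPM per kb over the 30 libraries. It was followed by Snord17 at 493, Gm25395 at 445, Scarna2 at 396 and Snord13 at 383 CPM per kb. Scarna2 guides modification of a spliceosomal RNA, and Snord13 is needed for a base acetylation in small-subunit ribosomal RNA. The 12 members with the highest mean CPM took 73.9% of the members' summed level, and 27 members had at least 10 reads in every library. At the edge of the rule, Gm23608, Snord49a and Snord59a met it in 5 libraries with 111, 220 and 245 reads in all, and Gm26175, Snora20 and Snord66 missed it with 4 libraries despite 687, 654 and 416 reads.

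**Figure D1:**
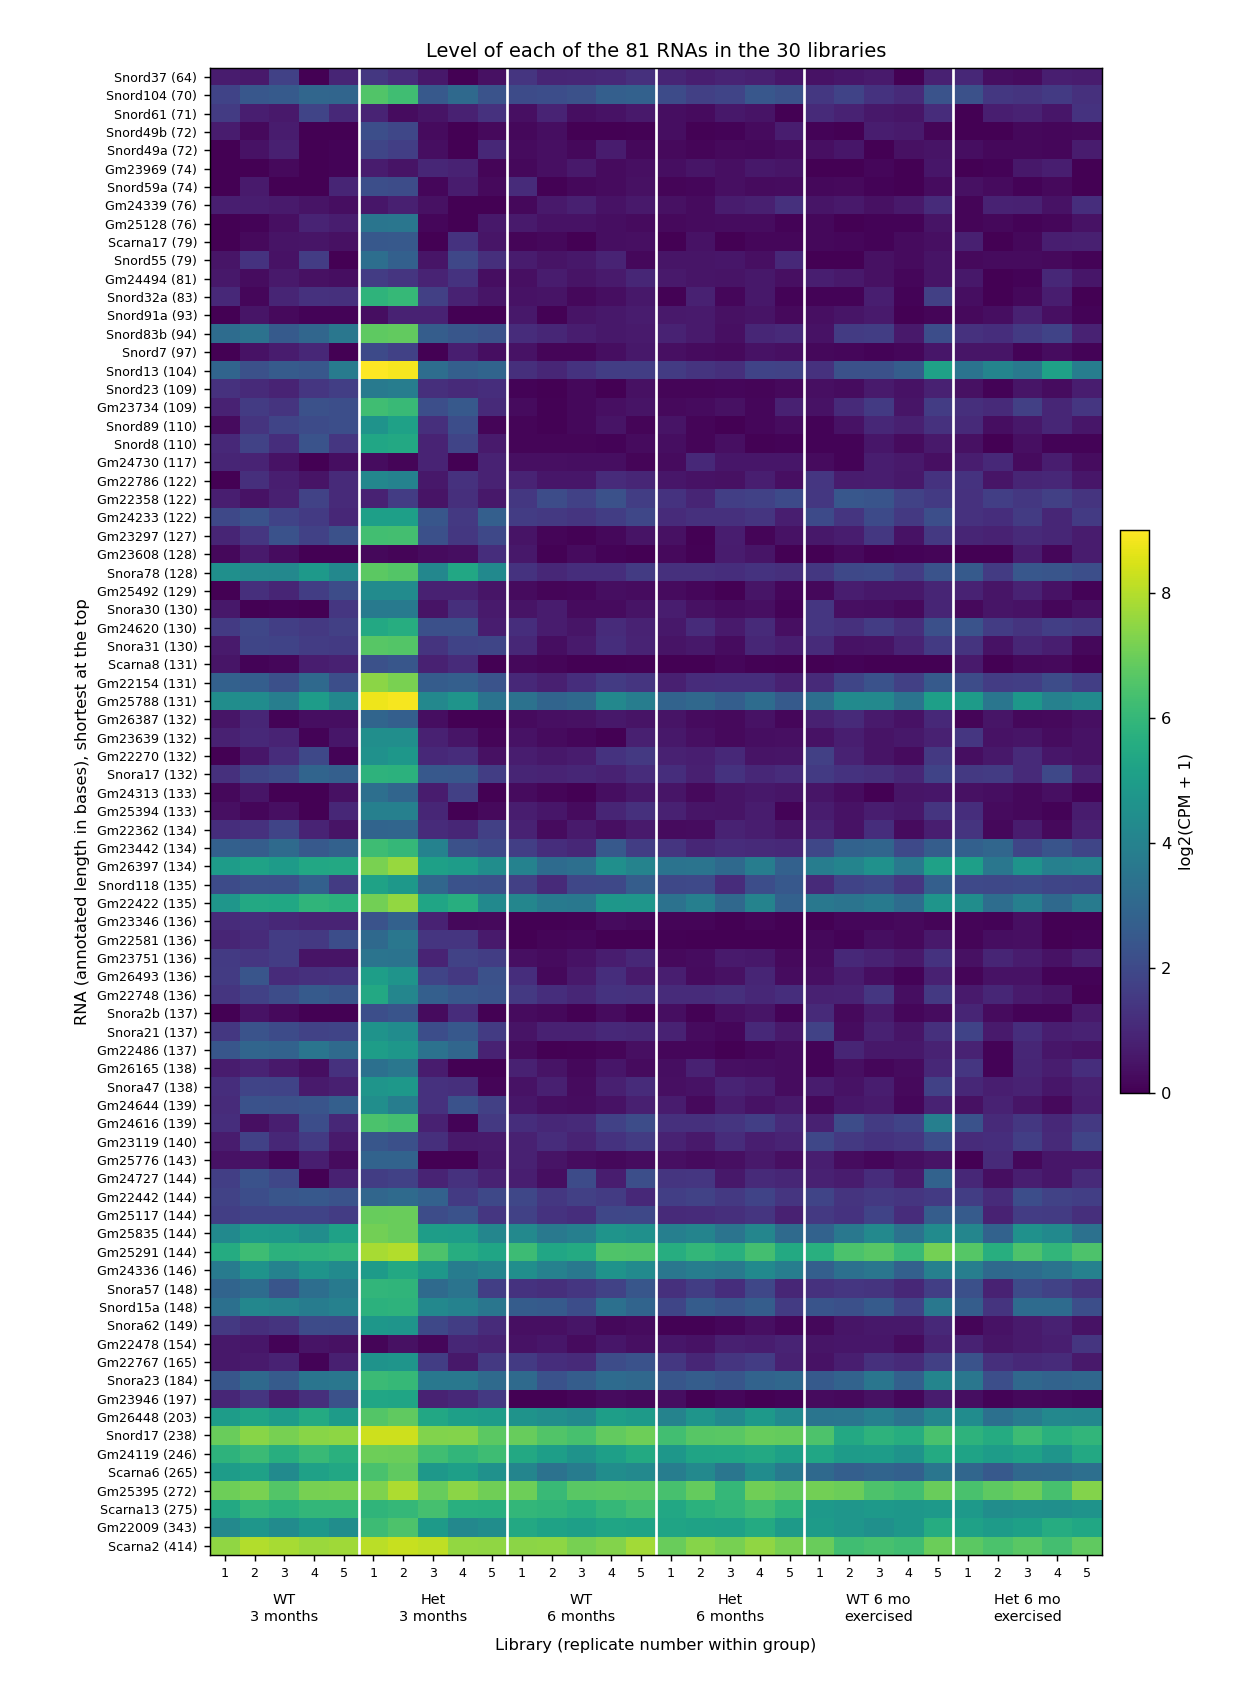
Level of each of the 81 RNAs (rows, shortest at the top, annotated length in bases in brackets) in the 30 libraries (columns, replicates 1 to 5 of each group), as log2(CPM + 1). The columns of heterozygotes 1 and 2 at 3 months are bright for most RNAs under 200 bases, for example Snord13 at 519 and 472 CPM.

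Heterozygotes 1 and 2 at 3 months stood apart from the other 28 libraries. The members took 0.538% and 0.537% of their counts, against 0.0865% to 0.126% in the other 3-month libraries and 0.0401% to 0.0997% at 6 months. Their summed member level was 4829 and 5022 CPM, against 861 to 1242 CPM in the other 3-month libraries and 459 to 927 CPM at 6 months. All 81 members were detected in both, and 49 members have most of their reads in these 2 libraries. Without them 73 of the 81 would still meet the rule, and 60 meet it on the 6-month libraries alone. The main results that use the group are therefore given with and without them. All comparisons come from 1 fit with a shared estimate of spread. These 2 libraries thus also enter the SE and p of comparisons that do not use the group, for which no values without them were taken.

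**Figure D2:**
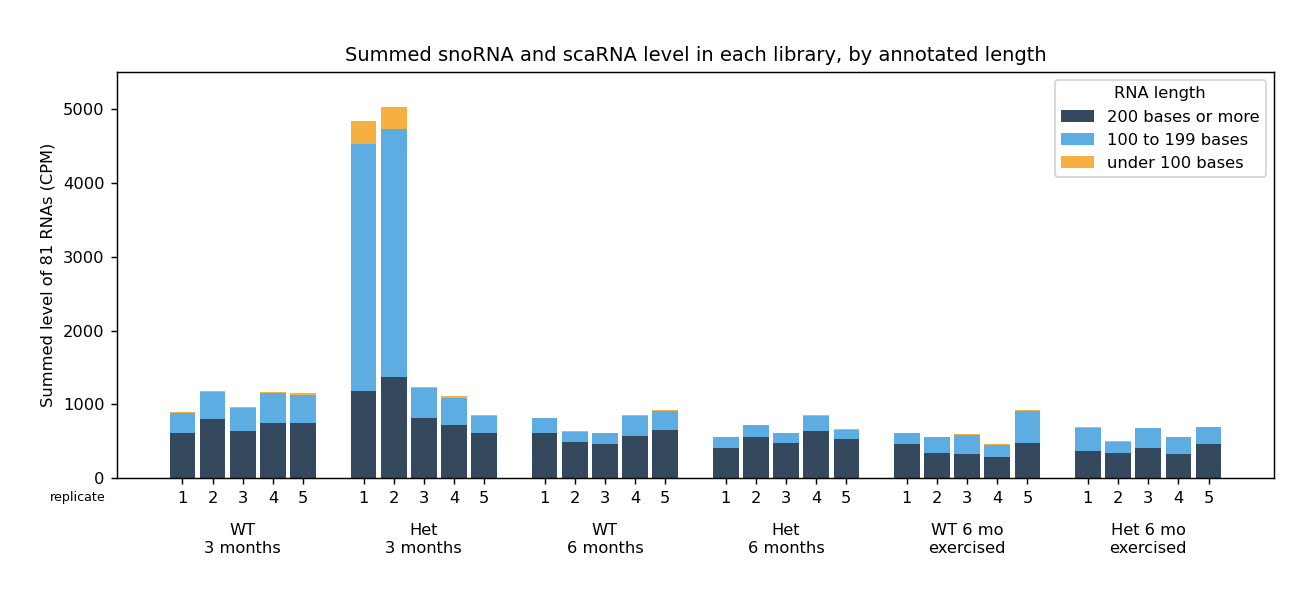
Summed level of the 81 RNAs in each library (bars, CPM, replicates 1 to 5 of each group), with each bar split into 3 classes of annotated RNA length. Heterozygotes 1 and 2 at 3 months reach 4829 and 5022 CPM, most of it from RNAs of 100 bases to under 200 (3341 and 3357 CPM), and the other 28 bars lie between 459 and 1242 CPM.

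The excess was uneven across members and smaller in those of 200 bases or more. Against the mean of the 5 wild types (ratio on CPM + 0.5), the median log2 ratio of members of 100 bases to under 200 was 3.13 in heterozygote 1 and 3.02 in heterozygote 2. For the 16 members under 100 bases it was 2.22 and 1.96, and for the 8 members of 200 bases or more 1.07 and 1.07. The members differ in level between these classes, with a median wild-type mean of 0.387 CPM under 100 bases, 2.03 CPM from 100 to under 200 and 57.7 CPM from 200 bases up. Plain CPM ratios, without the added 0.5, had medians of 11.6, 12.3 and 2.11 in heterozygote 1 and 8.97, 11.4 and 2.1 in heterozygote 2, in the same order of classes, so the gap between the 2 shorter classes depends largely on that addition. The parts of length and of level were not separated. In heterozygotes 3, 4 and 5 the medians over all members were -0.005, -0.013 and -0.32, near the wild-type level. Both box types took part: among members of 100 bases to under 200, heterozygote 1 had a median of 2.64 for the 7 with C and D boxes and 3.33 for the 43 with an ACA box.

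**Figure D3:**
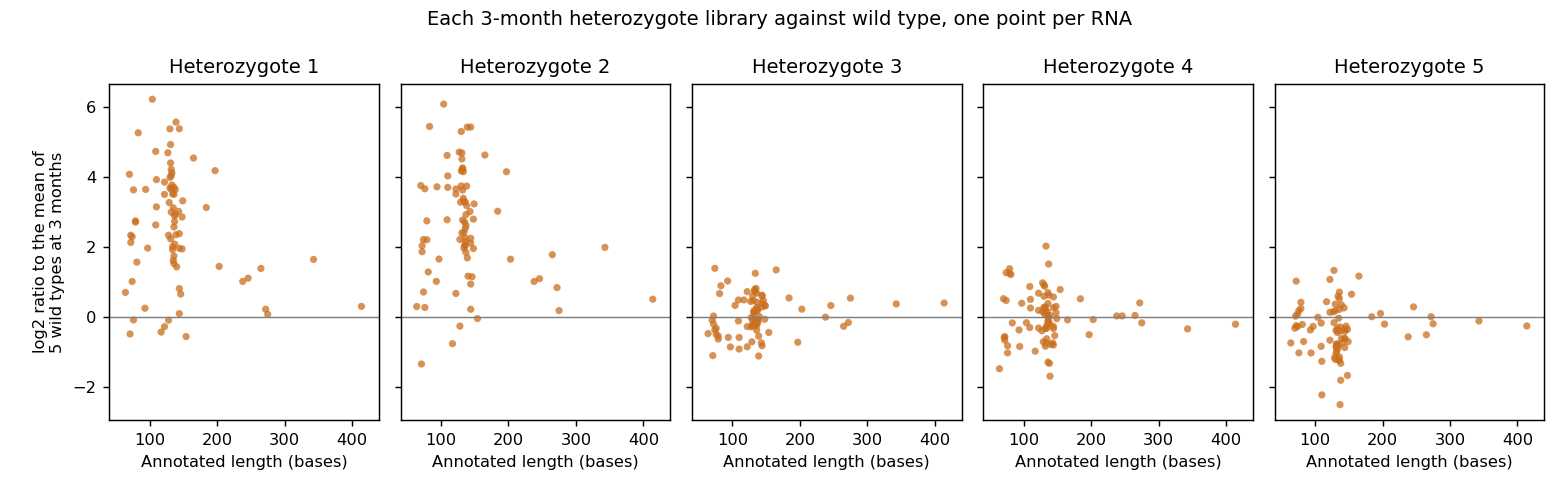
log2 ratio of each 3-month heterozygote library to the mean of the 5 wild types at 3 months (on CPM + 0.5), against annotated length in bases, with a point for each of the 81 RNAs and a panel for each library. In heterozygotes 1 and 2 most points from 100 to under 200 bases lie above 2, and none of 200 bases or more does, while heterozygotes 3 to 5 scatter around 0.

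Single RNAs show the range. Snord13 had 519 and 472 CPM in heterozygotes 1 and 2, and 3.76 to 12.4 CPM in the other 8 libraries of that age. Snora31, a guide for ribosomal RNA pseudouridylation, had 101 and 96.3 CPM against 0.556 to 2.7, and Snord32a 56.7 and 64.4 CPM against 0.117 to 2.27. In each the 2 libraries lay far above all others. Members of 200 bases or more differed less, and not all alike: Scarna13 had 59.5 and 64.2 CPM, within the 42.9 to 82.2 CPM of the others, and Scarna2 268 and 309 against 182 to 287 CPM, while Scarna6 had 85.5 and 112 against 18.7 to 41.7 CPM. Some short members did not follow either, such as Snord61 (71 bases) with 0.846 and 0.243 CPM against 0.378 to 2.65, named after its values were seen. Outside the members, the small RNAs Rny1, Rny3 and Rnu12 were high in the same 2 libraries, with 5124 and 3643, 638 and 826, and 769 and 576 CPM. Rmrp was also higher there, at 652 and 771 CPM. The other small RNAs listed, Rn7sk, Rn7s1, Rn7s2, Rpph1 and Terc, were not: Rn7sk had 12920 and 15015 CPM, against 12608 to 17399 in the other 3-month libraries. All snRNA, misc_RNA and ribozyme rows together took 4.73% and 4.71% of counts, against 3.18% to 4.48% in the other 3-month libraries. The part of library preparation in the high values of these 2 libraries was not tested.

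The genotype comparison at 3 months called 5 members (edgeR adjusted p under 0.05), all higher in heterozygotes, and all 5 calls rested on those 2 libraries. The members are Gm22154 (in Pabpc4), Gm25117 (in Nap1l1), Snora31 (in Tpt1), Gm22767 (in Ppp1r8) and Gm24233 (in Mia2), all with an ACA box and 122 to 165 bases long. The call rate in this direction over all 15587 genes tested was 0.167%. Of the 81 members, 78 passed the filter on low counts (Gm25128, Gm24313 and Gm23608 did not). A member that passed it only through libraries where it is high had to differ, so counts over the tested members are descriptions. The median log2 fold change of the 78 was 2.15, against -0.002 over all genes tested. Without heterozygotes 1 and 2 the median was 0.018 and edgeR called 0 members (4 at an unadjusted p under 0.05). Over all genes 0.0061% were then called higher and 0% lower, so few calls were left in the whole table. Shares of all genes at an unadjusted p under 0.05 are not given, here or below, so counts at that threshold are descriptions.

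Gm22154 had 5.98, 5.46, 3.55, 7.57 and 3.54 CPM in wild types 1 to 5 and 175, 148, 5.1, 5.57 and 3.92 CPM in heterozygotes 1 to 5. Heterozygotes 1 and 2 were above the wild types, and the other 3 lay inside their range (log2 fold change 3.69 with SE 0.779, edgeR adjusted p = 0.0498, n = 5 per group; -0.10 and 0.959 without heterozygotes 1 and 2). Gm25117 had 2.23, 2.53, 2.52, 2.52 and 2.03 CPM in wild types and 119.6, 124, 3.28, 3.78 and 1.67 CPM in heterozygotes, again with the high values in the same pair (log2 fold change 4.41 with SE 0.883, edgeR adjusted p = 0.0498; 0.30 and 0.879 without them). For Snora31 the values were 0.556, 2.7, 2.52, 2.02 and 1.9 CPM in wild types and 101, 96.3, 1.57, 2.48 and 2.67 CPM in heterozygotes (log2 fold change 4.39 with SE 0.918, edgeR adjusted p = 0.0498; 0.20 and 0.952 without them). Gm22767 had 0.487, 0.588, 0.802, 0.063 and 0.721 CPM in wild types and 23.7, 25.2, 2.14, 0.482 and 1.83 CPM in heterozygotes (log2 fold change 4.31 with SE 0.841, edgeR adjusted p = 0.0448), so heterozygotes 3 and 5 also lay above all wild types. Without heterozygotes 1 and 2 its log2 fold change was 1.46 with SE 0.649 (unadjusted p = 0.0313, edgeR adjusted p = 0.454). Gm24233 had 2.85, 3.82, 2.52, 1.89 and 0.983 and 32.8, 33, 4.35, 1.86 and 5.67 CPM (log2 fold change 2.68 with SE 0.523, edgeR adjusted p = 0.0413), again with heterozygotes 3 and 5 above all wild types, and 0.71 with SE 0.395 (edgeR adjusted p = 0.583) without the pair. In none of the 78 members did the ranges of the 2 genotypes separate at 3 months, against 0.642% of all genes with heterozygotes wholly above and 0.757% wholly below. Of the 10 fits that leave out 1 library of the comparison, edgeR called 0 members in the 7 without a wild type or without heterozygote 1 or 2, and 23, 26 and 29 without heterozygotes 3, 4 and 5. The counts over all genes in these fits are not given here. DESeq2 called 30 members among 145 genes called in all, and limma-voom 0 among 18.

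At 6 months no member passed the edgeR test between genotypes. With regular activity 0 members were called, against 0.135% of all genes, and 0 had an unadjusted p under 0.05. DESeq2 and limma-voom also called 0 members, among 62 and 476 genes called in all. The median log2 fold change of the members was -0.22, with 58 below and 20 above 0. In exercised mice 0 members were called, against 0.404% of all genes, with 1 at an unadjusted p under 0.05 and a median of -0.065. DESeq2 and limma-voom called 0 members in exercised mice, among 203 and 194 genes called in all. The smallest p there belonged to Scarna8 (log2 fold change 3.20 with SE 1.44, edgeR adjusted p = 0.446), which had 1 read in all 5 exercised wild types together and 12 in the exercised heterozygotes. With regular activity Gm22422 had the smallest p (log2 fold change -0.82 with SE 0.476, edgeR adjusted p = 0.656), and 2 members had all heterozygotes below all wild types, against 2.16% of all genes. The long, well-counted members were close between genotypes at 6 months: Scarna13 averaged 62.2 ± 9.48 CPM (mean ± SD, n = 5) in wild types against 57.7 ± 12.2 in heterozygotes, and Scarna2 174 ± 26.9 and 152 ± 23.2. A missed threshold does not show that the genotypes are alike. Heterozygotes 1 and 2 at 3 months also enter the estimate of spread in these tests, and no values without them were taken here.

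From 3 to 6 months, 7 members were lower in wild type and none was higher, against call rates of 0.462% and 0.398% over all genes. They are Snora78, Snora62, Gm22581, Gm23346 and Gm24644, which have an ACA box, and Snord23 and Gm22486, which have C and D boxes, all of 109 to 149 bases. Only Snora78 and Gm24644 would meet the member rule on the 6-month libraries alone, so the other 5 became members through their 3-month reads, and their place in the count is a description. In each of the 7, all 5 wild types at 6 months lay below all 5 at 3 months. The median of the 78 members was -0.91, against 0.012 over all genes, and 60 were below 0. Ranges were wholly lower at 6 months for 21 members, against 2.17% of all genes. These wild-type values do not involve heterozygotes 1 and 2, though their SE and p come from the fit that holds that pair. The sets of libraries follow age, as the spike-in entries show. limma-voom called 1 member here among 151 genes called in all, and DESeq2 15 among 328, with all these members lower.

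Snora78, a box H/ACA guide, changed most clearly. Wild types had 21.6, 18, 17.4, 27.9 and 17.6 CPM at 3 months and 1.51, 0.995, 1.26, 1.27 and 1.99 CPM at 6 months, with no overlap (log2 fold change -3.86 with SE 0.422, edgeR adjusted p = 3.17e-06). The call held in all 10 fits that leave out 1 library (highest edgeR adjusted p 5.46e-05). Gm22486, which crosses an exon of its host Ptcd3, had 4.38, 6.64, 6.13, 10.3 and 7.6 CPM and then 0.201, 0, 0.0392, 0.102 and 0.291 CPM, so the older libraries were at or near 0 (log2 fold change -5.74 with SE 0.785, edgeR adjusted p = 1.00e-04). Reads of Gm22486 and of that exon may not be fully separable. Gm22581 fell from 0.904, 1.18, 2.06, 1.83 and 3.41 CPM to 0, 0.0995, 0.118, 0 and 0 CPM, which is 150 reads against 5 over the groups (log2 fold change -5.14 with SE 0.861, edgeR adjusted p = 9.84e-04).

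The remaining 4 were lowly counted. Snord23, in the nucleolar protein gene Nop53, went from 1.46, 1.12, 0.859, 1.7 and 2.16 to 0.0503, 0, 0.157, 0 and 0.339 CPM (log2 fold change -3.62 with SE 0.758, edgeR adjusted p = 0.0114), and Gm24644 from 1.18, 3.82, 3.67, 4.1 and 5.7 to 0.453, 0.249, 0.235, 0.356 and 0.727 CPM (log2 fold change -3.18 with SE 0.617, edgeR adjusted p = 0.00569). Snora62 went from 1.81, 1.35, 1.55, 3.22 and 3.08 to 0.302, 0.298, 0.431, 0.153 and 0.194 CPM (log2 fold change -2.94 with SE 0.706, edgeR adjusted p = 0.0366), a call kept in 3 of 10 fits that leave out 1 library, and Gm23346 (log2 fold change -3.66 with SE 0.93, edgeR adjusted p = 0.0484) was called in 0 of those 10. The long members did not pass: Scarna13 had 42.9, 61.2, 52.5, 62.2 and 61.5 CPM at 3 months and 61.6, 59.3, 50.6, 62.7 and 76.9 at 6 months, with overlapping ranges (log2 fold change 0.15 with SE 0.141, edgeR adjusted p = 0.726). Gm22009, a box C/D RNA of 343 bases, had all older values above all younger ones, at 33.1 to 43 against 18 to 27.2 CPM, without a call (log2 fold change 0.76 with SE 0.311, edgeR adjusted p = 0.297); Gm22767 was the only other member with ranges apart in this direction, 2 in all against 1.71% of all genes.

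**Figure D4:**
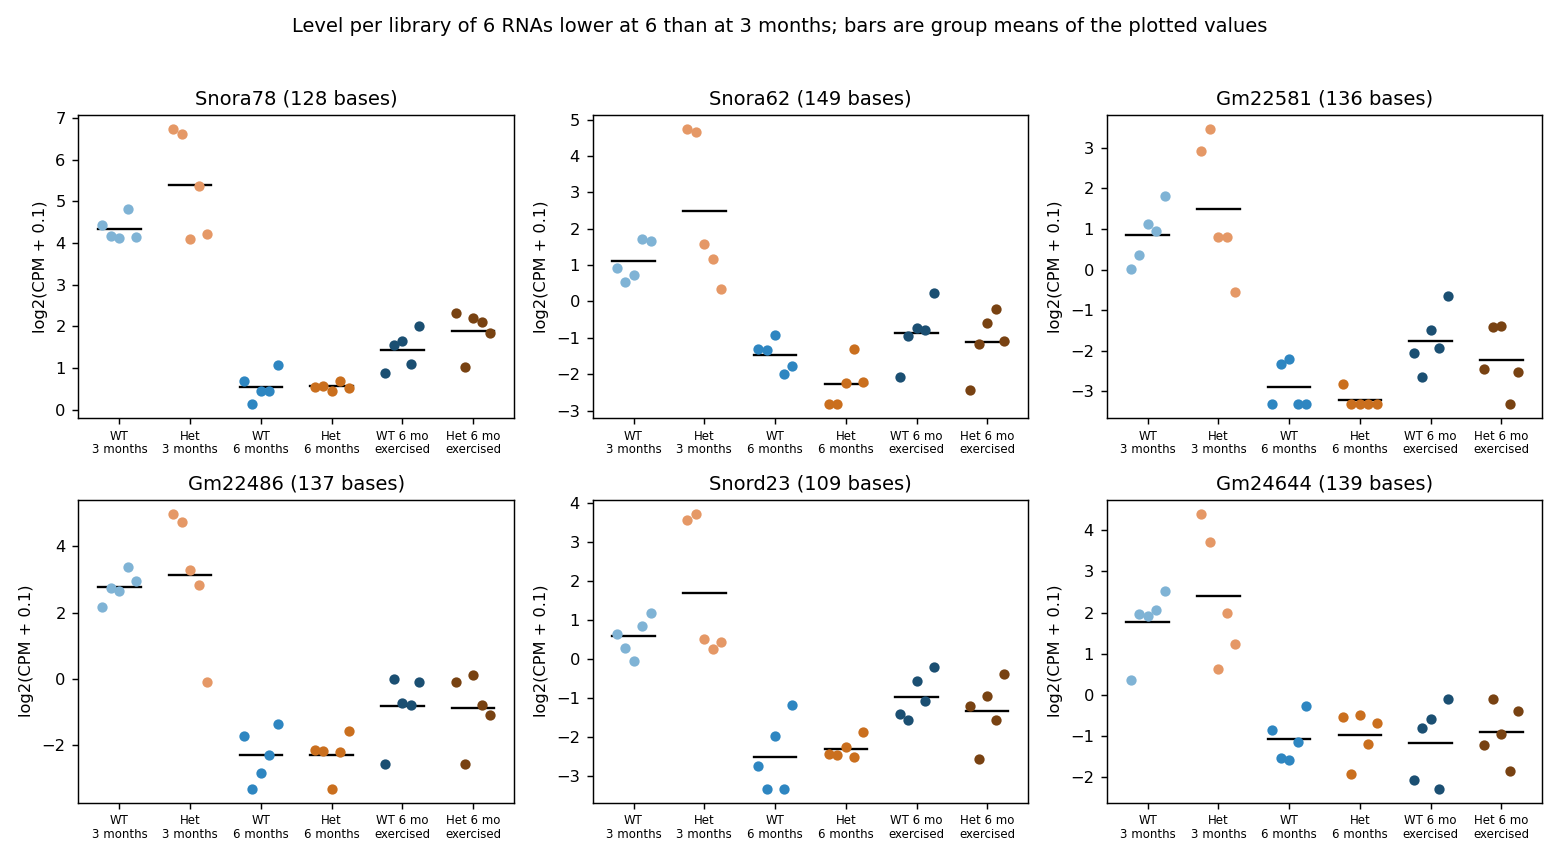
Level of Snora78, Snora62, Gm22581, Gm22486, Snord23 and Gm24644 in each library, as log2(CPM + 0.1), by group; points are libraries in replicate order and bars are means of the plotted values. In wild type and in heterozygotes every 3-month point lies above every point of the same genotype at 6 months with regular activity, and heterozygotes 1 and 2 at 3 months are the 2 highest points in each panel.

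In heterozygotes 56 members were lower at 6 than at 3 months and 0 higher, with call rates of 1.96% and 1.46% over all genes. The median of the members was -3.50, against -0.016 over all genes. Ranges were wholly lower at 6 months for 32 members, against 2.84% of all genes, and for 32 also with only heterozygotes 3 to 5 at 3 months, against 8.11%. The 56, of 78 tested, include 11 Snord, 9 of 10 Snora, 4 of 5 Scarna, 27 Gm snoRNA and 5 Gm scaRNA members, and all 7 called in wild type. The wild-type comparison shares no library with this one, but both come from the same fit and set the same spike-in sets against each other. With most members called here, the overlap is a description. Without heterozygotes 1 and 2, 30 members were called, 29 lower, all among the 56, and 1 higher (Gm22009), and the median was -1.19. The call rates over all genes were then 2.92% lower and 1.93% higher. On the 6-month libraries alone 60 members meet the rule, and 45 of these were called lower with all libraries. By length, 46 of 55 tested members of 100 bases to under 200 were called lower with all libraries, 5 of 15 under 100 bases and 5 of 8 of 200 bases or more; without the pair these were 26, 1 and 2.

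Snora78 had 106, 97.6, 16.9, 41.1 and 18.4 CPM in 3-month heterozygotes 1 to 5 and 1.35, 1.39, 1.28, 1.52 and 1.34 CPM at 6 months (log2 fold change -5.34 with SE 0.441, edgeR adjusted p = 2.50e-08). Without heterozygotes 1 and 2 the log2 fold change was -4.19 with SE 0.291 (edgeR adjusted p = 3.79e-11), close to the wild-type value. Snora62 went from 26.6, 25, 2.9, 2.13 and 1.17 to 0.0423, 0.0408, 0.111, 0.304 and 0.117 CPM (log2 fold change -6.45 with SE 0.802, edgeR adjusted p = 7.85e-06; -3.97 and 6.23e-04 without the pair). Gm22581 had 1 read in the 5 heterozygotes at 6 months against 387 at 3 months, a 525-fold lower pooled rate with a 95% counting interval of 93.7 to 20793 (exact binomial), and the younger count rests mostly on heterozygotes 1 and 2. Without them Gm22581 was still called (-6.32, edgeR adjusted p = 5.73e-04), as were Gm22486 (-5.53, 2.79e-05), Snord23 (-3.48, 0.0094) and Gm24644 (-2.48, 0.0125).

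Some members with large values lost the call without that pair. Snord13 was at 519, 472, 8.25, 5.71 and 6.42 CPM at 3 months and 1.95, 1.59, 1.33, 2.51 and 2.45 at 6 months (log2 fold change -6.68 with SE 1.2, edgeR adjusted p = 0.00197), but -1.78 with edgeR adjusted p = 0.124 without the pair. Snord32a (-6.28 with and -1.92 without the pair) and Snora31 (-6.18 and -2.0) also lost the call, at edgeR adjusted p = 0.27 and 0.0526. Gm22767 moved from -2.90 to -0.06 (0.973) and Gm26387 from -3.31 to 1.38 (0.411). Among long members Scarna6 was called both ways (-1.93 and -0.90, the latter at edgeR adjusted p = 0.030), and Scarna2 only with the pair (-0.70 and -0.52, the latter at 0.0771). Fibroblast markers summed to 109 to 183 CPM in heterozygotes at 3 months and 333 to 489 CPM at 6 months, macrophage markers to 12 to 27.4 and 42.7 to 84.2 CPM, and endothelial markers (7 genes) to 216 to 245 and 349 to 709.9 CPM. The part of these cells in the differences was not tested.

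After treadmill exercise few members were called, and most of the lower ones were of 200 bases or more. That class also has the highest median level, at 57.7 CPM in wild types at 3 months against 2.03 and 0.387 CPM in the shorter classes. The parts of length and of level in passing the test were not separated. In wild type 5 members were lower (Scarna13, Scarna2, Snord17, Gm26448 and Gm24336) and 0 higher, against 5.05% and 4.64% of all genes, so the share of members called was near the background. In heterozygotes 3 were lower (Scarna13, Scarna2 and Snord17) and 1 was higher (Snora78), against 3.48% and 5.34% of all genes. Scarna13, Scarna2 and Snord17 were called in both, which is 60% of the wild-type and 75% of the heterozygote calls. The median log2 fold change over all members was 0.31 in wild type and 0.38 in heterozygotes, so most members, which are short, had positive values without passing the test, while the 8 of 200 bases or more had medians of -0.80 and -0.56. Ranges were apart for 4 members below and 1 above in wild type, against 5.58% and 5.04% of all genes, and for 6 below and 7 above in heterozygotes, against 4.02% and 5.1%. DESeq2 called 9 members in wild type (6 lower) among 1910 genes called in all, and 8 in heterozygotes (4 lower) among 1790. Without the filter on low counts edgeR called 2 among 1035 and 2 among 816. In wild type only 2 were called without regular-activity library 4 or 5 or exercised library 2 or 4, and 3 without regular-activity library 1 or exercised library 1. In heterozygotes 2 were called without regular-activity library 4 or exercised library 4.

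Scarna13, a box H/ACA scaRNA, was the clearest. Wild types had 61.6, 59.3, 50.6, 62.7 and 76.9 CPM with regular activity and 28.2, 26, 28.8, 26.4 and 27.5 CPM after exercise, with no overlap (log2 fold change -1.18 with SE 0.144, edgeR adjusted p = 4.63e-06). Heterozygotes had 41.3, 53.9, 60.8, 75 and 57.5 and 28.6, 20.7, 22.1, 21.3 and 24.1 CPM, again apart (log2 fold change -1.31 with SE 0.145, edgeR adjusted p = 6.79e-07). It stayed called in both genotypes in all 10 fits without 1 library and in all 6 other alternatives. The exercised libraries of both genotypes, at 20.7 to 28.8 CPM, lay below all 20 others, including the 3-month ones.

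Scarna2, the longest member, had 173, 178, 143, 163 and 216 CPM in wild type and 123, 76.3, 84.3, 74.8 and 126 CPM after exercise (log2 fold change -0.85 with SE 0.16, edgeR adjusted p = 6.98e-04). In heterozygotes it had 122, 168, 145, 182 and 144 and 108, 86.6, 104, 80.2 and 111 CPM (log2 fold change -0.64 with SE 0.159, edgeR adjusted p = 0.00976). Exercised libraries were lower without overlap in both genotypes, and the calls held without any single library. Snord17, a box C/D snoRNA, had 119.8, 93.8, 82.4, 115 and 131 and 88.8, 42.5, 56.3, 48.1 and 85.7 CPM in wild type, where the ranges overlap (log2 fold change -0.76 with SE 0.243, edgeR adjusted p = 0.0479), and 77.5, 101, 103, 121 and 118 and 56.7, 45.8, 71.7, 51.5 and 60 CPM in heterozygotes, where they do not (log2 fold change -0.86 with SE 0.244, edgeR adjusted p = 0.0254). Its calls were kept in 3 of 10 fits without 1 wild-type library and in 7 of 10 without 1 heterozygote library.

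Gm26448 had 23.8, 20.9, 18.2, 32.1 and 29.3 CPM in wild type and 10.5, 10.7, 14, 9.8 and 16.7 CPM after exercise (log2 fold change -1.01 with SE 0.303, edgeR adjusted p = 0.0324; called in 5 of 10 fits without 1 library), and -0.49 in heterozygotes (edgeR adjusted p = 0.361). Gm24336 had 20.9, 14.7, 11.4, 24.1 and 18.9 and 5.62, 9.0, 10.6, 5.75 and 14.4 CPM in wild type (log2 fold change -0.99 with SE 0.297, edgeR adjusted p = 0.0314; called in 4 of 10). Scarna6 missed the threshold in both genotypes with like values (log2 fold change -1.09 with SE 0.355, edgeR adjusted p = 0.0508; log2 fold change -1.06 with SE 0.356, edgeR adjusted p = 0.0631). Not every long member was lower: Gm25395, which shares the host Atg16l1 with Scarna6, had 128, 67.7, 104, 107 and 104 CPM and 135, 126, 90.6, 76.4 and 124 CPM after exercise in wild type (log2 fold change 0.11 with SE 0.216, edgeR adjusted p = 0.845).

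**Figure D5:**
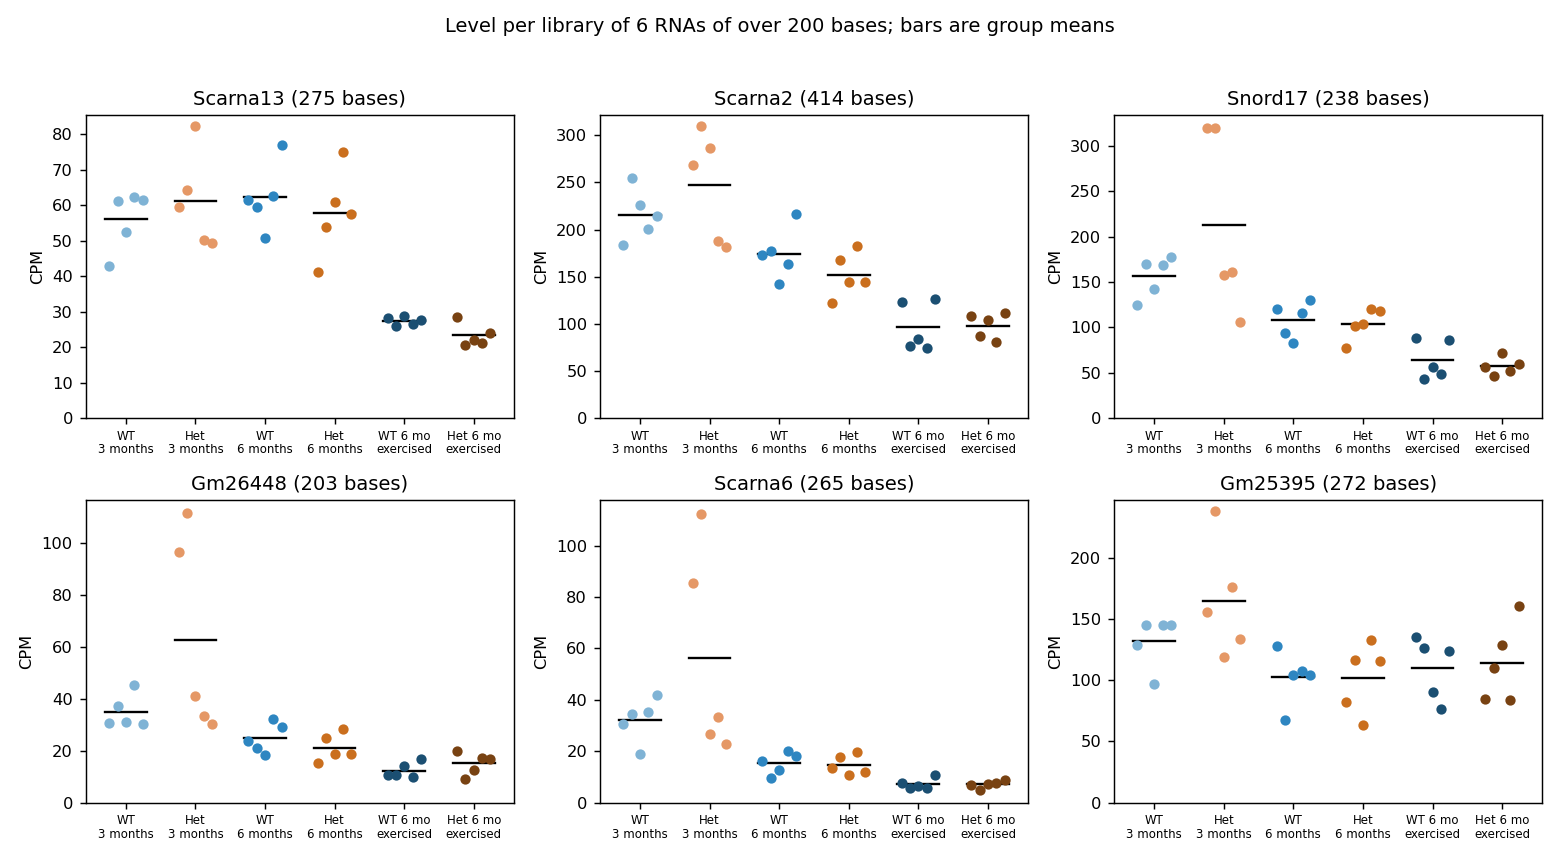
Level in CPM of 6 RNAs of over 200 bases in each library, by group; points are libraries in replicate order and bars are group means. Scarna13, Scarna2, Snord17 and Scarna6 lie lower in both exercised groups than in the matching 6-month groups on average, and Gm25395 does not.

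Snora78 rose with exercise in heterozygotes, from 1.35, 1.39, 1.28, 1.52 and 1.34 CPM to 4.86, 1.94, 4.48, 4.2 and 3.47 CPM, without overlap (log2 fold change 1.45 with SE 0.423, edgeR adjusted p = 0.0304). The call was kept in only 1 of the 10 fits without 1 library. In wild type it had 1.74, 2.84, 3.05, 2.02 and 3.9 CPM after exercise (log2 fold change 0.94 with SE 0.429, edgeR adjusted p = 0.184), still below every 3-month library. Snord13 was higher in every exercised heterozygote (9.71 to 34.7 CPM) than in any with regular activity (1.33 to 2.51 CPM), but missed the threshold (log2 fold change 3.11 with SE 1.08, edgeR adjusted p = 0.0733). Mitochondrial transcripts took 20.8% to 46.9% of counts in exercised wild types against 13.3% to 17.6% with regular activity, and 22% to 38.1% against 11.7% to 26.7% in heterozygotes. With library size and scaling taken from nuclear protein-coding genes alone, edgeR again called 5 and 4 members, among 1500 and 1353 genes called in all. The exercised libraries form a set of their own by the spike-in entries, so handling and exercise cannot be told apart.

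No member showed a genotype difference in its response that passed the test. For genotype by exercise 0 were called by edgeR (1 at an unadjusted p under 0.05), DESeq2 and limma-voom, against 0.0128% of all genes, and the values were -0.12 (SE 0.202) for Scarna13, 0.21 (SE 0.224) for Scarna2 and 0.51 (SE 0.602) for Snora78, all at edgeR adjusted p = 0.999. For genotype by age edgeR and limma-voom called 0 members, as of all genes (0%), and DESeq2 called 8, among 25 genes called in all. By edgeR 48 of the 78 members tested had an unadjusted p under 0.05, falling to 4 without heterozygotes 1 and 2. The share of all genes at that unadjusted threshold is not given here, so these counts are descriptions. Large values there included Gm22767 (log2 fold change -4.97 with SE 1.11, edgeR adjusted p = 0.278) and Gm25117 (log2 fold change -5.23 with SE 1.22, edgeR adjusted p = 0.312).

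Host genes mostly did not move with the RNAs inside them. Of 62 hosts tested, only Rpl13a was called at 3 months, higher in heterozygotes (2.78, 3.06, 1.78, 1.01 and 2.03 CPM in wild types and 5.84, 5.27, 4.72, 6.4 and 3.17 CPM in heterozygotes; log2 fold change 1.26 with SE 0.266, edgeR adjusted p = 0.0498). All 5 heterozygotes lay above all 5 wild types, unlike Snord32a in its intron, which was high only in heterozygotes 1 and 2. Without that pair Rpl13a had a log2 fold change of 1.16 (edgeR adjusted p = 0.188) and no host was called, against 0.0061% of all genes higher and 0% lower. Pabpc4, host of Gm25788 and Gm22154, had a log2 fold change of -0.09, Tpt1, host of Snora31, 0.08, and Rpsa, host of Snora62, -0.09 at 3 months. Rpsa was at 336 and 426 CPM in heterozygotes 1 and 2, the lowest of the 10 libraries of that age, against 561 to 842 in the other 8, and Pabpc4 at 302 and 296 against 343 to 401 CPM. Rpsa and Pabpc4 were thus lower in the libraries where short RNAs in their introns were higher, but this was not general. Tpt1 was at 175 and 193 CPM in heterozygotes 1 and 2, against 140 to 188 in the other 8. The median log2 fold change of the 62 hosts at 3 months was 0.085. With age in wild type, none of the tested hosts of the 7 lower members was called. In heterozygotes 3 hosts were called lower (Ybx3, Nap1l4 and Slc25a3), against 1.96% of all genes. Each held a lower member, though 47 of the 65 members with a tested host were called lower in this comparison. Without the pair Ybx3 (-0.47, edgeR adjusted p = 0.0129) and Slc25a3 (-0.68, 0.00168) were again called, Nap1l4 was not (-0.30, 0.0695), and Atp5b was (-0.47, 0.0232). The call rate over all genes was then 2.92% lower. With exercise 5 of the 62 hosts were called in wild type and 7 in heterozygotes, against 9.69% and 8.82% of all genes in either direction, none of them the host of a called member. The noncoding host Snhg9 of Snora78 was at 0 to 1.72 CPM in every library and was not tested.

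Pairs in the same host could be compared directly. Gm25788 and Gm22154 agree at 127 of 131 aligned positions (96.9%), so reads may have been shared between them; Gm25788 had 444, 482, 17.3, 24.3 and 9.76 CPM in heterozygotes at 3 months and Gm22154 lower values in the high libraries (175 and 148). Gm22270 and Gm26387 in Rpl5 agree at 94.7%, with the same limit. The other 4 pairs agree at 63.9% or less. In Rpsa, Gm26448 (203 bases) was 18.2 to 32.1 CPM in wild type at 6 months and overlapped its 3-month values (30.3 to 45.3), while the shorter Snora62 did not overlap, as given above. In Atg16l1, Scarna6 was lower at 6 months in heterozygotes in the test and Gm25395 was not (log2 fold change -0.69 with SE 0.217, edgeR adjusted p = 0.0703).

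Genes for proteins that bind or process these RNAs were compared with the same fit (35 listed, 32 tested). None was called for genotype at either age. The box C/D core (Fbl, Nop56, Nop58 and Snu13, which form the methylation complex) had 0 of the 4 tested genes called in any comparison with all libraries; without heterozygotes 1 and 2 at 3 months, Fbl was higher at 6 months in heterozygotes (1.05, edgeR adjusted p = 0.00903). Of the box H/ACA core (Dkc1, Nop10, Nhp2 and Gar1), Nop10 alone was called, lower with exercise in wild type (log2 fold change -0.71 with SE 0.165, edgeR adjusted p = 0.00466) and in heterozygotes (log2 fold change -0.62 with SE 0.165, edgeR adjusted p = 0.0146). With exercise in wild type 4 of the 32 were higher and 2 lower, against 4.64% and 5.05% of all genes: Smn1, which assembles spliceosomal particles (0.90), Larp7, which binds 7SK RNA (0.74), Nolc1 (0.52) and the noncanonical poly(A) polymerase Papd5 (0.45) were higher, and Nufip1, an assembly factor (-0.71), was lower like Nop10. In heterozygotes Papd5 (0.45) and the exosome nuclease Dis3 (0.55) were higher, against 5.34% of all genes, and Nop10 was the only one lower. With age, over all libraries, only Ruvbl2, an assembly ATPase, was called, lower in heterozygotes (log2 fold change -0.39 with SE 0.11, edgeR adjusted p = 0.0401; -0.45 and 0.0363 without the pair).

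Other small noncoding RNAs were compared in the same fit. Of 73 snRNA, misc_RNA and ribozyme rows tested, 8 were higher in heterozygotes at 3 months, Rny1, Rny3 and Rnu12 among them (6.71, 5.43 and 4.75 as log2 fold changes), against 0.167% of all genes. Without heterozygotes 1 and 2 none of the 73 was called, against 0.0061% of all genes higher, and the log2 fold changes were 1.09, 0.13 and 0.07. With age 21 were lower in wild type and 36 in heterozygotes, against 0.462% and 1.96% of all genes, and 27 were lower in heterozygotes without the pair, against 2.92%. With exercise Rn7sk, the 7SK RNA, was lower in wild type (log2 fold change -1.16 with SE 0.117, edgeR adjusted p = 1.74e-07) and in heterozygotes (log2 fold change -1.25 with SE 0.118, edgeR adjusted p = 6.40e-08), while the signal recognition particle RNA Rn7s2 was higher in both (2.25 and 2.43).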

How the data were processed

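Total RNA of 30 libraries in 6 groups of 5 was measured by rRNA-depleted, strand-specific, paired-end sequencing, per the labels' protocols. The authors deposited 1 table of raw read counts by gene; featureCounts, HISAT2, Trim Galore and the mm10 build are named in the submitters' processing notes. The annotation release and strand setting used in counting are not given in the sources used here. The authors' counts of spike-in controls were left out of library sizes and tests.

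Counts of all genes were fitted with edgeR 4.0.16 (quasi-likelihood F test, TMM scaling, group means, filterByExpr, R 4.3.3), and p-values were adjusted by Benjamini-Hochberg over the 15587 genes tested. Calls are at an adjusted p under 0.05. The CPM of a gene is its count divided by the scaled library size and multiplied by 1000000, and the SE of a log2 fold change is its size divided by the square root of F. Alternatives were DESeq2 1.42.0, limma-voom (limma 3.58.1), other scalings, no filter, a replicate block, a stricter member rule, and leaving libraries out. The fit was tested on simulated data. Intervals cover counting error only. Sequences, positions and hosts come from GENCODE M21 (GRCm38), and some sequences are not reported here.

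The members and lists were chosen with earlier results of these data known. Named members are the 12 with the highest mean CPM, up to 8 called per direction and comparison by size of change, the 3 with the smallest p where a comparison called none, members of chosen hosts or with transcription units of their own, all Scarna members, and those at the rule's threshold; hosts of named members and called partner genes are also named, and Snord61, Snord83b, Snord104 and Gm22270 were added after their values were seen.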

Additional observations from a re-analysis of the deposited data

Results flagged for a closer look

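In 234 groups of 5 libraries (39 RNAs in 6 groups), 12 had a library far from the other 4 by Dixon's test; chance alone flags about 1 in 20 groups. The library of exercised wild type 5 was the high one for 4 RNAs. It had 35.1 CPM of Snord13 against 5.38 in the next library, 24.9 CPM of Gm22422 against 12.3, 6.19 CPM of Gm24727 against 1.21 and 2.29 CPM of Snord32a against 0.699. Exercised heterozygote 4 had 34.7 CPM of Snord13 against 15.8. Exercised heterozygote 1 had 5.02 CPM of Gm25117 against 2.03 and 3.94 CPM of Gm22767 against 1.31. Heterozygote 4 at 6 months with regular activity had 18.5 CPM of Gm24336 against 13.2 and 0.304 CPM of Snora62 against 0.117. Wild type 5 at 6 months with regular activity was low for Gm24730, at 0.0969 CPM against 0.254. For Scarna8 in exercised wild type 2 (0.0592 CPM) and Gm22581 in heterozygote 1 at 6 months (0.0423 CPM), a single read stood against 0 in the other 4 libraries.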

How the results depend on the processing

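Of the counts of called members, those for genotype at 6 months (0 with regular activity, 0 exercised) and for genotype by exercise (0) were the same under every alternative run. For these comparisons no values without heterozygotes 1 and 2 at 3 months were taken. For genotype at 3 months, 5 members became 30 with DESeq2 and 0 with limma-voom, without the low-count filter, with a replicate block, and without heterozygotes 1 and 2; leaving out 1 library gave 0 to 29. For exercise in wild type, 5 became 9 with DESeq2, 2 without the filter and 2 with a replicate block (2 to 6 leaving out 1 library), and in heterozygotes 4 became 8 and 2 (2 to 3). For age in wild type, 7 became 15 with DESeq2 and 1 with limma-voom (5 to 6 leaving out 1 library). For age in heterozygotes, 56 became 30 without heterozygotes 1 and 2 at 3 months (45 to 60), and for genotype by age, 0 became 8 with DESeq2 (0 to 2). Over all genes DESeq2 called 145 for genotype at 3 months, 1910 and 1790 for exercise, 328 for age in wild type and 25 for genotype by age. For genotype at 3 months edgeR called 30 genes in all in the main fit, 2 without the filter and 1 with a replicate block. It called 1 without heterozygotes 1 and 2, and limma-voom called 18. The members' median log2 fold change was 2.20 without the filter and 1.99 with the block, against 2.15 in the main fit. For exercise in wild type the block gave 1339 genes in all, and no filter 1035 (816 in heterozygotes). Without heterozygotes 1 and 2, Gm22154 turned to -0.10 for genotype at 3 months and Gm26387 to 1.38 for age in heterozygotes. A rule of 20 counts in 10 libraries kept 40 members, of which 1 was called for age in wild type and 32 for age in heterozygotes. As a share of nuclear protein-coding counts, the members' mean was 0.135% in wild type at 3 months, 0.103% and 0.0986% in wild type and heterozygotes at 6 months, and 0.0838% and 0.0852% after exercise. The causes of these changes between settings were not tested. Replicate numbers are shared between groups, but the samples share only a number: same-number correlations of deviations ran from -0.36 to 0.24, and at most 2 of 5 correlated best with their own number. The plain ratios by length class, and the values without heterozygotes 1 and 2 for hosts, partner genes, other small RNAs and separated ranges, were alternatives chosen after seeing the data. Low counts limit the short members, of which 3 were not tested.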
